A study of Mus musculus with 12 samples.

Results

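The genes on both sides of mGULL on mouse chromosome 8 are described here, from Hsbp1 to Taf1c. mGULL is a long noncoding RNA (lncRNA) of mouse liver that lies between the protein-coding genes Mlycd and Osgin1, and the members were taken by their position: Hsbp1, Mlycd, Osgin1, Necab2, Slc38a8, Mbtps1, Hsdl1 and Taf1c, 8 of the 55385 genes measured. Livers of 12 male C57BL/6 mice were sequenced, 4 in each of 3 groups, and every mouse was 7 weeks old, received adenovirus at a total of 500000000 pfu and was killed after 7 days. Ad-Ctrl mice received the Lac and pAdv5 viruses, Ad-shmGULL mice the virus carrying an shRNA against mGULL with the pAdv5 virus, and Ad-shmGULL+hGULL mice the shRNA virus with a virus expressing hGULL, the human lncRNA studied as its counterpart. All 3 groups therefore carried adenovirus, and there was no uninjected group. Age, dose and day are from the study's methods, which name the injection route as intravitreal in one place and retro-orbital in another. Gm32006, the annotated gene at the position of mGULL, was not matched by name to any gene measured, so these values hold no check of the knockdown. The study reports qPCR of mGULL knockdown and of hGULL overexpression in wild-type mice given adenovirus.

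A lncRNA can act on the genes beside it, through its transcription or through the RNA held at the site, or it can act on genes elsewhere through the proteins it binds. Neighbouring genes are the usual place to look for the first kind of action. The comparison of these 8 genes asks whether their RNA levels differed between control, knockdown and rescue mice. An shRNA acts on the RNA and hGULL was supplied by a virus, so an effect of transcription at the locus is outside it. The neighbours of mGULL have different jobs. Mlycd encodes malonyl-CoA decarboxylase, which removes the malonyl-CoA that feeds fatty acid synthesis and blocks carnitine palmitoyltransferase 1. Osgin1 encodes an oxidative stress-induced growth inhibitor and is known as a target of the transcription factor NRF2. Mbtps1 encodes the site-1 protease, a Golgi enzyme that makes the first cut in SREBP and ATF6 precursors. Hsbp1 binds and restrains heat shock factor 1, Taf1c is a subunit of the selectivity factor that brings RNA polymerase I to ribosomal RNA genes, and Hsdl1 belongs to the hydroxysteroid dehydrogenase-like proteins. Necab2, a neuronal calcium-binding protein, and Slc38a8, a glutamine transporter best known from the retina, are not typical liver genes.

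The 8 genes span 260669 bp (GRCm38.p6, the build of the authors' alignment, RefSeq annotation, chromosome 8, 119344538 to 119605206). Gm32006, the annotated lncRNA gene at the position of mGULL, lies on the minus strand from 119415104 to 119429562. Mlycd (119394852 to 119421838) and Osgin1 (119425882 to 119446257) are both on the plus strand and overlap the Gm32006 gene by 6735 and 3681 bp, while the gap between Mlycd and Osgin1 themselves is 4043 bp. In the GENCODE annotation of GRCm39, 0 exon bases of Gm32006 lie opposite exons of either gene. On the far side of Osgin1, Necab2 starts after 461 bp, and Mbtps1 and Hsdl1 lie 78589 and 132416 bp from Gm32006. Hsdl1 and Dnaaf1, a cilia gene that is not a member, point away from each other with 20 bp between them. Taf1c overlaps the end of Dnaaf1 by 481 bp. The libraries were strand-specific, but whether the counting used the strand is not given in the sources used here, so reads from overlapping genes on opposite strands may not be told apart.

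**Figure D1:**
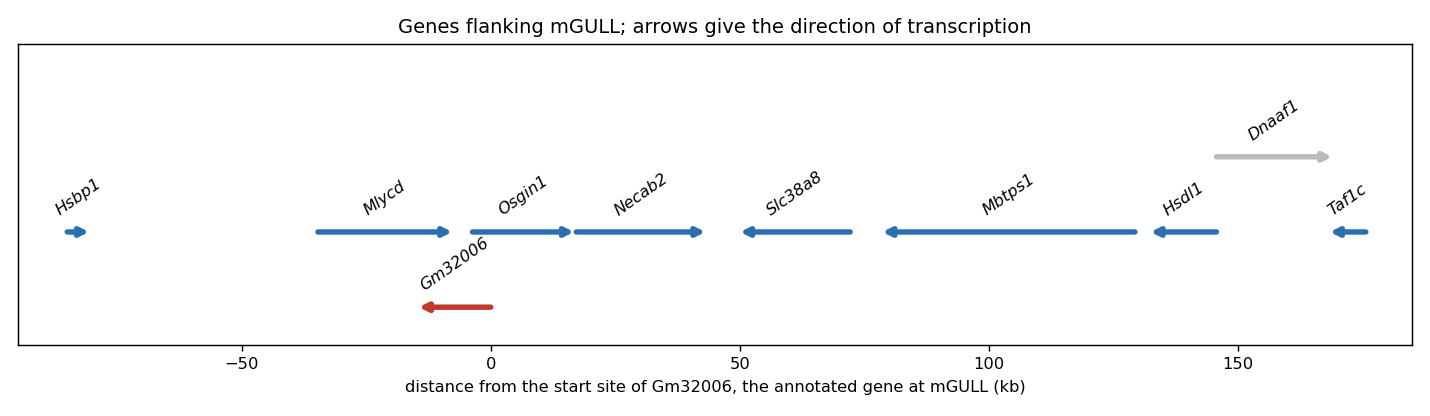
Map of the flanking genes, drawn to scale as distance in kb from the start site of Gm32006, the annotated gene at mGULL (red). Arrows run from the start to the end of each gene; blue genes are the 8 members and Dnaaf1 is grey, and Mlycd and Osgin1 are the only members that overlap the red arrow.

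The sequences that define the knockdown are the 21-nt targets of the 4 shRNAs listed by the study, which does not say which one the virus carried. They are printed in the sense of mGULL, 5′ to 3′, because a match in a neighbouring mRNA would make that gene a target too.
shRNA 1: ggcttggaatatagagttatc
shRNA 2: acaatgagatgcaatttaaac
shRNA 3: gctcatgacatttgatcttca
shRNA 4: gcccagcactcactatgtatg
Each target had 1 match in the GRCm39 genome, on the minus strand of chromosome 8 within an exon of Gm32006: chr8:120149823-120149843 for shRNA 1, chr8:120150011-120150031 for shRNA 2, chr8:120150899-120150919 for shRNA 3 and chr8:120150116-120150136 for shRNA 4. None lies within the Mlycd or Osgin1 gene. Gm56837, annotated on the plus strand, spans all 4 targets, and that of shRNA 3 lies opposite an exon of it. Exact matches to annotated transcripts were found for Gm32006 only. Against the 162 annotated transcripts of the 8 flanking genes, the closest ungapped match of any target over its full length had 7 mismatches. Shorter matches and the opposite strand of each target were not searched in these transcripts. The count therefore cannot show that no flanking gene was a target.

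RNA levels were given as TPM, an abundance unit in which every library has the same total and values are scaled for gene length, and so can be compared between genes. Of the 8 genes, 6 passed the requirement of a mean of at least 1 TPM and were tested among 16378 genes. Osgin1 had the highest level, with a mean of 163 TPM over the 12 mice (range 102 to 199), followed by Mlycd at 90.1 TPM (83.0 to 127). The ranges of these 2 genes overlapped, and Osgin1 was above Mlycd in 11 of 12 mice. Hsbp1 (66.2 TPM, 55.6 to 73.1), Mbtps1 (29.0 TPM, 24.1 to 31.5), Hsdl1 (10.3 TPM, 8.29 to 12.5) and Taf1c (2.82 TPM, 1.65 to 3.78) followed, each range lying below the one before. Necab2 had a mean of 0.302 TPM, Dnaaf1 one of 0.0353, and Slc38a8 was listed at 0 in all 12 mice. The depth of the libraries is unknown because TPM sum to the same total, so no detection limit can be given for these 3 genes.

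**Figure D2:**
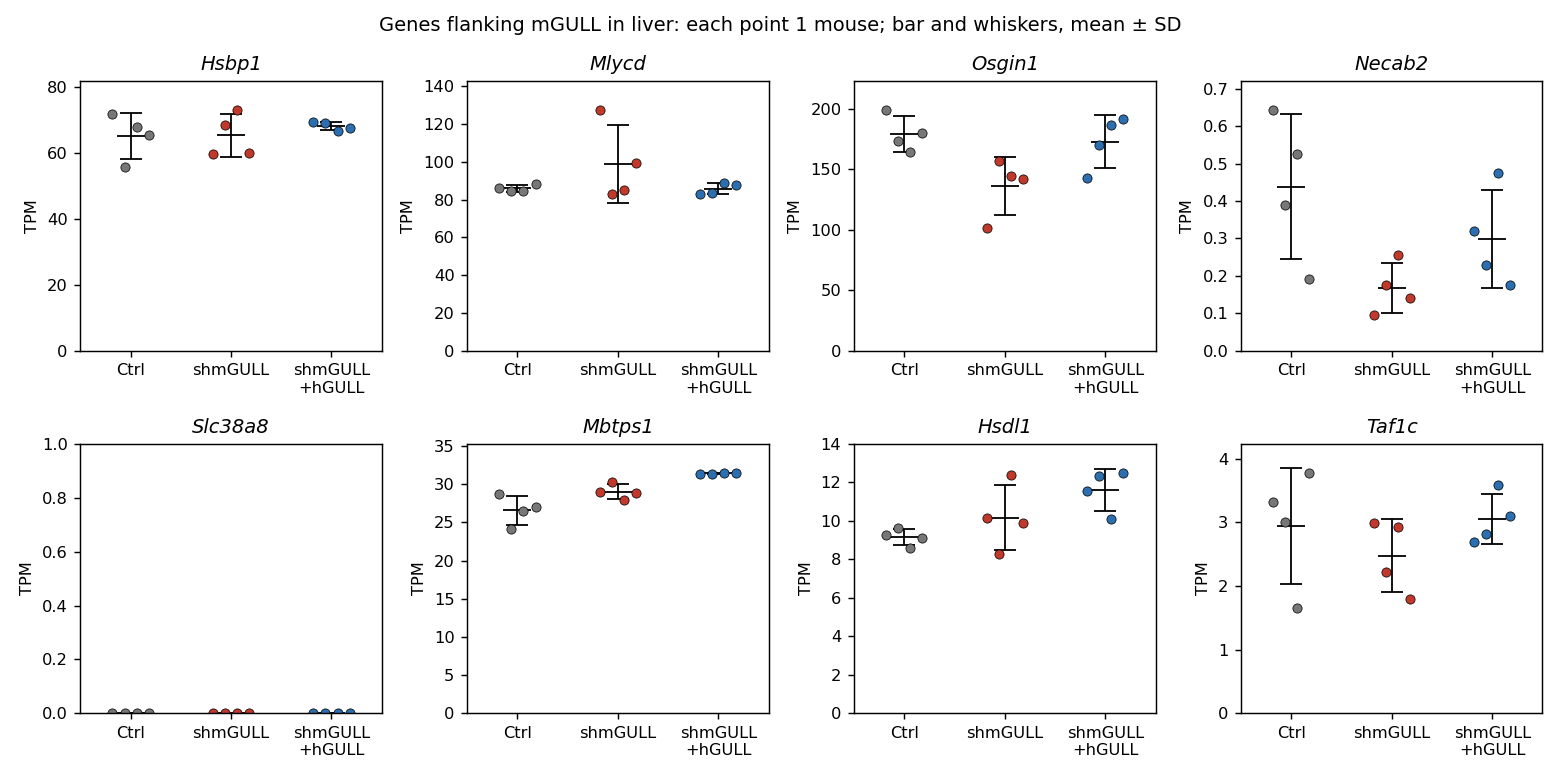
Level of each flanking gene in TPM (y axis from 0) in the 3 groups. Each point is 1 mouse, the bar and whiskers are the mean and SD of 4 mice; the 4 Ad-shmGULL points of Osgin1 lie below all 4 Ad-Ctrl points, and those of Mlycd are spread from 83.0 to 127.

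Hepatocyte genes were abundant: the summed TPM of 10 hepatocyte markers was 84599 to 119420 in Ad-Ctrl, 89693 to 102720 in Ad-shmGULL and 78014 to 91635 in Ad-shmGULL+hGULL. Most of that sum was albumin, and 3 of the 10 markers passed the study's threshold as lower after knockdown (Tat, log2 fold change -0.80, Apoa1, -0.60, and Fgb, -0.52) and 1 as higher (Cyp3a11, 0.78). For each of the 5 marker lists of other liver cells (Kupffer, endothelial, stellate, T and NK cells and cholangiocytes), the ranges of the summed TPM in the knockdown and rescue groups overlapped that of the control group. Of 10 endothelial markers, 2 passed as higher after knockdown (Stab2, log2 fold change 0.54, and Oit3, 0.53), 8 did not pass, and the summed level was 260 to 352 TPM against 169 to 278 TPM in controls. Of 10 Kupffer cell markers, 1 passed after knockdown, as lower (Marco, -1.04). Of 6 tested cholangiocyte markers, Tspan8 passed as lower (-0.71) and Sox9 as higher (0.64). Most of the cholangiocyte sum was Spp1, with a mean of 75.2 TPM in Ad-Ctrl. No stellate or T and NK cell marker passed after knockdown. These marker genes were named after their values were seen, and their part in the results below was not tested. Fewer cells of a type and less RNA per cell cannot be told apart in such bulk tissue. The study's threshold asks for an unadjusted P under 0.05 together with a log2 fold change larger than 0.5 in size. In knockdown minus control, 5.35% of the 16378 genes passed it as higher and 2.30% as lower. In rescue minus knockdown these shares were 2.33% and 0.672%, and in rescue minus control 6.84% and 0.641%. An adjusted p under 0.05 was reached by 3.23%, 0.00% and 2.15% of genes in the 3 comparisons. Across all tested genes, the medians of the log2 fold change were 0.087, 0.093 and 0.17 in the same order. With median-of-ratios scaling these medians were -0.0030, 0.0071 and -0.0030, so changes are also given relative to them.

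None of the 6 tested flanking genes passed the study's threshold or had an adjusted p under 0.05 in any of the 3 comparisons (limma, Benjamini-Hochberg over 16378 genes). After mGULL knockdown, 1 of the 6, Osgin1, had an unadjusted P under 0.05, and it was lower; among all tested genes 4.80% were lower at that level. In rescue minus knockdown it was again Osgin1, now higher, against 9.32% of all tested genes. In rescue minus control they were Mbtps1 and Hsdl1, both higher, against 24.2%. The median log2 fold change of the 6 genes was 0.064 after knockdown, 0.15 in rescue minus knockdown and 0.069 in rescue minus control.

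**Figure D3:**
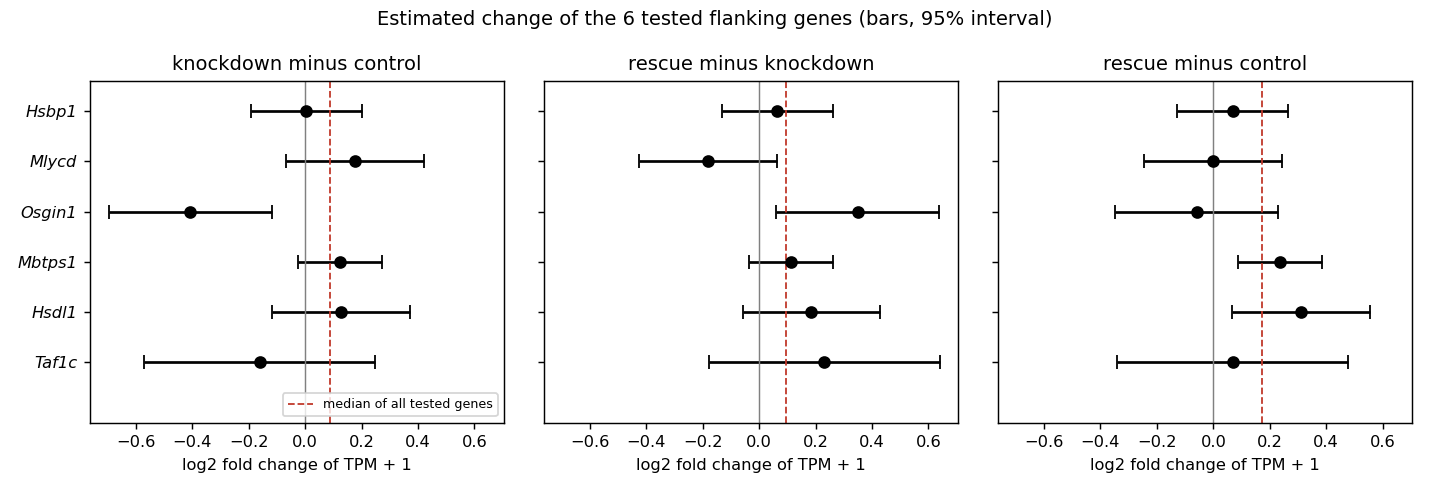
Log2 fold change of TPM + 1 (x axis) for the 6 tested flanking genes in the 3 comparisons, with the 95% interval of the limma estimate as bars. The red dashed line is the median of all tested genes, which lies at 0.087, 0.093 and 0.17; the interval of Osgin1 lies below 0 after knockdown, and those of Mbtps1 and Hsdl1 lie above 0 in rescue minus control.

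Osgin1 had the largest estimated change of the tested flanking genes after knockdown, without passing either threshold. Its level was 199, 173, 165 and 180 TPM in the 4 Ad-Ctrl mice, 102, 157, 145 and 142 TPM in the 4 Ad-shmGULL mice and 143, 170, 187 and 192 TPM in the 4 Ad-shmGULL+hGULL mice. Each of the 4 knockdown mice lay under the lowest control mouse, and the rescue mice overlapped both groups. A separation in that direction was found in 2.06% of all tested genes. The means were 179 ± 14.7 TPM (SD, n = 4) in controls and 136.5 ± 24.1 TPM (SD, n = 4) after knockdown. The log2 fold change was -0.41 (95% interval -0.70 to -0.12, adjusted p = 0.109 from limma; exact two-sided permutation test, p = 0.0286, the smallest that 4 against 4 can give). Measured from the all-gene median it was -0.49, and 9.73% of tested genes lay farther from that median. Between rescue and knockdown the log2 fold change was 0.35 (95% interval 0.059 to 0.64, adjusted p = 0.415; exact permutation test, p = 0.0857). The rescue and control groups differed by -0.059 on that scale (-0.35 to 0.23). Measured from the all-gene medians, these last 2 values were 0.26 and -0.23, so on that basis Osgin1 in the rescue group lay between the knockdown and control groups. Without Ad-shmGULL replicate 1 the rescue minus knockdown value was 0.21 (adjusted p = 0.701, limma). The knockdown mice enter both of the first comparisons, so those differences are not independent. With median-of-ratios scaling the change after knockdown was -0.51 with an adjusted p of 0.037 (limma), past both thresholds. Without that scaling, the change after knockdown was -0.27 when Ad-shmGULL replicate 1 was left out. Over the 19 alternatives the adjusted p after knockdown ran from 0.037 to 0.207 (limma).

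Mlycd was nearly constant in 2 of the 3 groups. It was 86.2, 84.4, 84.7 and 88.2 TPM in Ad-Ctrl, 127, 83.0, 84.9 and 99.5 TPM in Ad-shmGULL, and 83.1, 83.3, 88.6 and 87.9 TPM in Ad-shmGULL+hGULL. The coefficient of variation was 2.03% among control mice, a value undercut by 0.464% of tested genes, but 20.8% among knockdown mice, against a median of 18.9% for tested genes in that group. The high knockdown values came from replicates 1 and 4, while the other two were at the control level. The log2 fold change after knockdown was 0.18 (95% interval -0.067 to 0.42, adjusted p = 0.411 from limma; exact permutation test, p = 0.371), and it was 0.048 without Ad-shmGULL replicate 1. Between rescue and control it was -0.0028, with an interval of -0.25 to 0.24. Measured from the all-gene median that value was -0.18, and with median-of-ratios scaling it was -0.20 (adjusted p = 0.579, limma).

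The same mouse, Ad-shmGULL replicate 1, had the highest Mlycd and the lowest Osgin1 of all 12. The ratio of Osgin1 to Mlycd within a library, which does not depend on how libraries are scaled, was therefore computed after these values had been seen. It was 2.31, 2.06, 1.95 and 2.04 in Ad-Ctrl, 0.798, 1.89, 1.71 and 1.43 in Ad-shmGULL, and 1.72, 2.04, 2.11 and 2.18 in Ad-shmGULL+hGULL. Every knockdown mouse was below every control mouse, by a narrow margin for replicate 2, and the rescue mice overlapped both groups. On the log2 scale the ratio was lower after knockdown by 0.589 ± 0.283 (SE), a difference of -0.32 when Ad-shmGULL replicate 1 was left out. Between rescue and knockdown the difference was 0.53, and 0.27 without that mouse. Because the values prompted the ratio, and Osgin1 alone already separated knockdown from control mice, it is a description with no test. Its library had a mean correlation of 0.964 with the others of its group, against 0.969 for each of the other three, and the 20 highest genes took 34.2% of its TPM, the largest share of the 12.

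**Figure D4:**
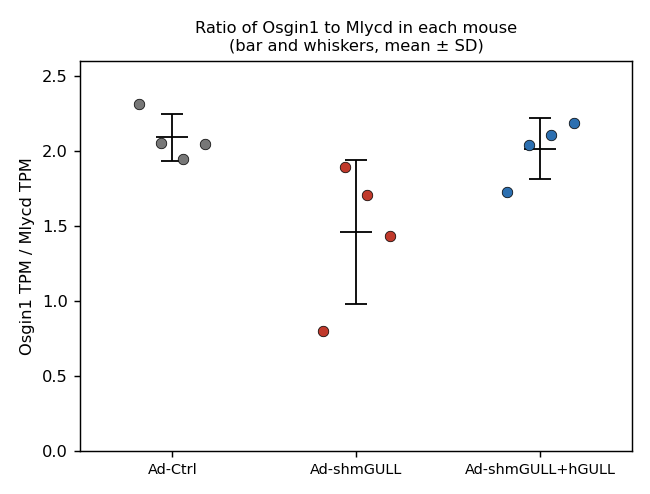
Ratio of Osgin1 TPM to Mlycd TPM (y axis from 0) in each mouse of the 3 groups; points are mice, the bar and whiskers the mean and SD of 4. The Ad-shmGULL ratios run from 0.798 to 1.89 and the Ad-Ctrl ratios from 1.95 to 2.31.

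The start regions of the genes nearest to mGULL are given beside these levels. The windows run from 250 bases before to 50 after the RefSeq start site (GRCm38.p6, 1 or more windows a gene, 32851 in all). Both strands were searched for 6 motifs: the GC box GGGCGG (35.7% of all windows), CCAAT (37.4%), the E-box CACGTG (7.15%), the cyclic AMP response element TGACGTCA (1.79%), the antioxidant response element core TGACNNNGC (12.4%), the sequence bound by NRF2 with small MAF proteins, and the AP-1 site TGACTCA (5.2%), which was added after the Osgin1 window had been read. The promoter of Osgin1, on the plus strand at chr8:119436897-119437196 and inside the longer annotated gene, is shown because Osgin1 had the largest estimated change after knockdown, with the AP-1 letters and a GC box on the opposite strand in capitals.
Osgin1: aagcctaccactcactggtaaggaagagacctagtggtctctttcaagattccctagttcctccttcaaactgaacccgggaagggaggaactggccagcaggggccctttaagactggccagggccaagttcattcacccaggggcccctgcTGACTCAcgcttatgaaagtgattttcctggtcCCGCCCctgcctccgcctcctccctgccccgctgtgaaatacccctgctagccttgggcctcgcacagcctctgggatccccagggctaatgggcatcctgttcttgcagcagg
The promoter of Mlycd, on the plus strand at chr8:119394644-119394943, holds 3 CCAAT boxes in capitals, of which the first is on the opposite strand and runs directly into the next.
Mlycd: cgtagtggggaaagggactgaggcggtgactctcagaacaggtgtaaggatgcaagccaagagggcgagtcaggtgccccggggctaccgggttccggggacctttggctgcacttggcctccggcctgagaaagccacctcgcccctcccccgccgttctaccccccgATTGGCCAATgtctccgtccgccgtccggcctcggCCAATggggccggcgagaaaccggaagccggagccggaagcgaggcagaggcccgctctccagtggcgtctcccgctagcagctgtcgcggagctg
No antioxidant response element core was found in the Osgin1 window, which does not cover the start of the longer annotated gene at 119425882. The Necab2 window also held the AP-1 letters, on the opposite strand. A window of Gm32006, the annotated gene at mGULL, held the antioxidant response element core on both strands. The Osgin1 window had 6 CpG pairs and a GC content of 58.7%, and the Mlycd window 27 CpG pairs and 68.0%, against medians of 7.0 pairs and 52.7% over all windows. These matches are letters only. They show neither binding nor a cause of the levels above.

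Mbtps1 had its highest level in the rescue group. It was 28.7, 24.1, 26.6 and 27.0 TPM in Ad-Ctrl, 29.0, 30.3, 28.0 and 28.8 TPM in Ad-shmGULL, and between 31.4 and 31.5 TPM in all 4 Ad-shmGULL+hGULL mice. The rescue mice were above every mouse of the other two groups (5.40% of tested genes had all rescue mice above all knockdown mice), and their coefficient of variation was 0.247%, the lowest of any tested gene in that group, where the median was 10.2%. The log2 fold change was 0.12 after knockdown (95% interval -0.024 to 0.27), 0.11 in rescue minus knockdown (-0.037 to 0.26) and 0.24 in rescue minus control (0.088 to 0.38, adjusted p = 0.0774 from limma; exact permutation test, p = 0.0286). In rescue minus control the rescue mice were all higher in 21.4% of tested genes, and the change of Mbtps1 measured from the all-gene median was 0.063, with 73.1% of tested genes farther from the median. Without Ad-Ctrl replicate 1 the adjusted p was 0.043, and over all fits that left out a mouse it ran from 0.043 to 0.214 (limma). With median-of-ratios scaling the log2 fold change was 0.041 (adjusted p = 0.812).

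Hsdl1 followed the same order of groups. It was 9.24, 9.62, 8.61 and 9.11 TPM in Ad-Ctrl, 10.1, 8.29, 12.4 and 9.88 TPM in Ad-shmGULL and 11.5, 12.3, 10.1 and 12.5 TPM in Ad-shmGULL+hGULL. All 4 rescue mice were above all 4 control mice, as in 21.4% of tested genes, while the knockdown mice overlapped both groups. The log2 fold change in rescue minus control was 0.31 (95% interval 0.068 to 0.56, adjusted p = 0.122 from limma, p = 0.0286 from the exact permutation test). This is 0.14 above the all-gene median, and 46.9% of tested genes lay farther from that median. Over the 19 alternatives the value ran from 0.13 to 0.37, with an adjusted p of 0.0516 to 0.734 (limma). After knockdown the log2 fold change was 0.13 (-0.12 to 0.37), and in rescue minus knockdown 0.18 (-0.059 to 0.43). The Hsdl1 promoter on the minus strand at chr8:119575126-119575425 also contains the annotated start of Dnaaf1, which was listed at 0 in 3 of 4 control, 3 of 4 knockdown and 2 of 4 rescue mice and reached 0.165 TPM. Capitals mark the antioxidant response element core on the opposite strand, an E-box and 2 GC boxes.
Hsdl1: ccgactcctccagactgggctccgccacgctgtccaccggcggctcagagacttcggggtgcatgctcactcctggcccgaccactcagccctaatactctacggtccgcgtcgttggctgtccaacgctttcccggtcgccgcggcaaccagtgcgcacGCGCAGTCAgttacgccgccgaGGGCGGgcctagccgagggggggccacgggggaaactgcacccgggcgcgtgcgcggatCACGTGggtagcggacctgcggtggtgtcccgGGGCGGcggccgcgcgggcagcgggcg
Annotated starts in both directions thus lie within this window. Another Hsdl1 window, at chr8:119574913-119575212, is not printed, and the TPM of a whole gene cannot be assigned to a single start. In these livers the level of the whole gene was at least 8.29 TPM for Hsdl1 and at most 0.165 TPM for Dnaaf1.

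Hsbp1 and Taf1c, the outermost members, showed no separation between any pair of groups. Hsbp1 was 71.7, 55.6, 67.9 and 65.4 TPM in Ad-Ctrl, 59.6, 68.6, 73.1 and 60.1 TPM in Ad-shmGULL, and 69.3, 68.9, 66.8 and 67.4 TPM in Ad-shmGULL+hGULL. After knockdown Hsbp1 had a log2 fold change of 0.0043 with a 95% interval of -0.19 to 0.20, and its sign changed with median-of-ratios and quantile scaling in all 3 comparisons. Taf1c was 3.32, 3.01, 1.65 and 3.78 TPM in Ad-Ctrl, 2.98, 2.22, 2.92 and 1.79 TPM in Ad-shmGULL, and 2.69, 2.83, 3.58 and 3.09 TPM in Ad-shmGULL+hGULL. For Taf1c the log2 fold changes were -0.16 (95% interval -0.57 to 0.25) after knockdown, 0.23 (-0.18 to 0.64) in rescue minus knockdown and 0.068 (-0.34 to 0.48) in rescue minus control. These are the widest intervals of the 6 genes.

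Necab2, the next gene after Osgin1, was below the level required for testing. It was 0.643, 0.389, 0.527 and 0.192 TPM in Ad-Ctrl, 0.0965, 0.176, 0.256 and 0.142 TPM in Ad-shmGULL, and 0.320, 0.229, 0.474 and 0.175 TPM in Ad-shmGULL+hGULL. The knockdown and control ranges overlapped in that 1 control mouse, at 0.192, was below 1 knockdown mouse, at 0.256. With no filter on low values, its log2 fold change of TPM + 1 was -0.29 after knockdown (adjusted p = 0.219 over 30810 genes, limma), a scale that understates the change of a gene at this level.

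The neighbourhood was then widened to 1 Mb on each side of Gm32006. RefSeq lists 34 genes that lie wholly in this window, Gm32006 included, of which 27 were matched to the table by name and 13 were tested, the 6 flanking genes among them. Their median log2 fold change was 0.11 after knockdown, 0.093 in rescue minus knockdown and 0.068 in rescue minus control. The medians of all tested genes were 0.087, 0.093 and 0.17. None of the 13 passed the study's threshold in any comparison. After knockdown 5.35% of all tested genes passed it as higher and 2.30% as lower. Usp10, a deubiquitinating enzyme 480798 bp from Gm32006, was the only one of the 13 with an adjusted p under 0.05. It had this after knockdown, where 3.23% of all tested genes did. It was 34.1 ± 4.89 TPM (SD, n = 4) in Ad-Ctrl, 47.8 ± 5.17 TPM (SD, n = 4) in Ad-shmGULL and 44.9 ± 3.35 TPM (SD, n = 4) in Ad-shmGULL+hGULL. Usp10 had a log2 fold change of 0.48 after knockdown (standard error 0.11, adjusted p = 0.039 from limma) and -0.086 between rescue and knockdown (adjusted p = 0.779). The call was lost in 10 of the 12 fits that left out a mouse, including those without Ad-Ctrl replicate 2, 3 or 4, Ad-shmGULL replicate 1, 2 or 4, or any rescue mouse, where the adjusted p was 0.0549 to 0.0982. It was also lost with no filter (0.0719), with 2 groups in the fit (0.129) and with the replicate block (0.0671). The other 6 genes outside the flanking set ranged from -0.079 (Meak7) to 0.25 (Cotl1) after knockdown.

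**Figure D5:**
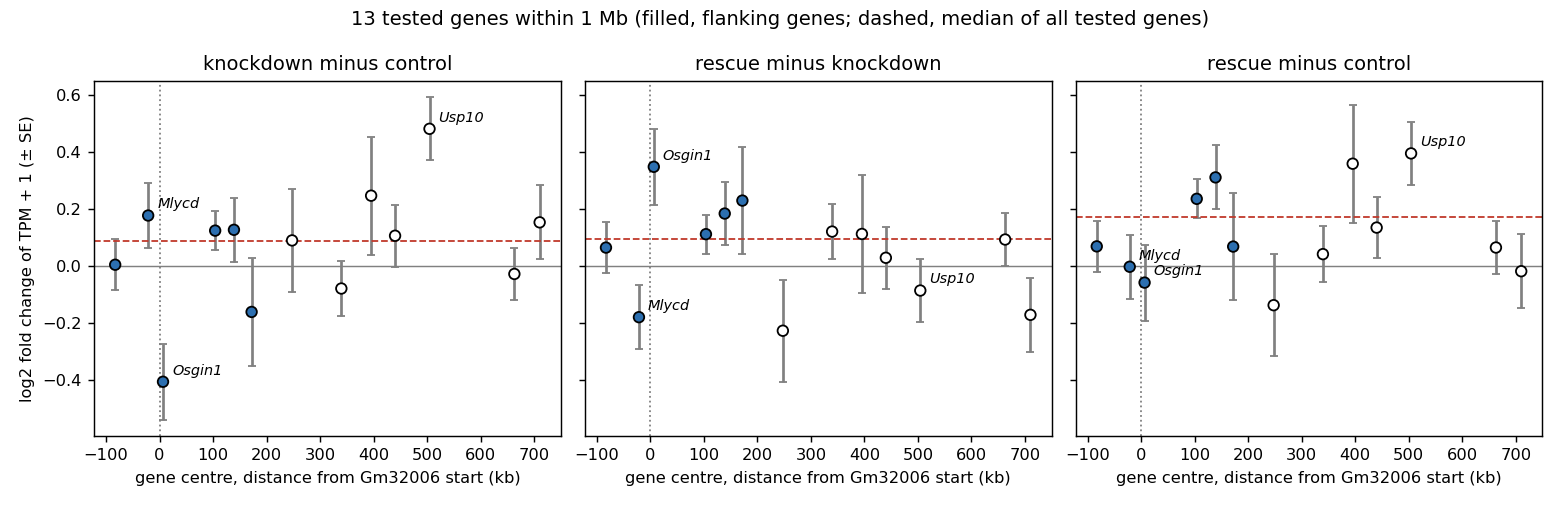
Log2 fold change of TPM + 1 (y axis, whiskers ± SE) against the distance of the gene centre from the start of Gm32006 in kb (x axis) for the 13 tested genes within 1 Mb, in the 3 comparisons. Filled points are the flanking genes and the dashed line is the median of all tested genes; in the left panel Osgin1 is the lowest point at -0.41 and Usp10 the highest at 0.48.

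Genes that work with the flanking genes were counted from lists put together by role. Of 10 tested genes of malonyl-CoA use and carnitine transfer, the setting of Mlycd, 4 passed the study's threshold as higher after knockdown and none as lower, against 5.35% of all tested genes higher. They included Fasn, the fatty acid synthase (log2 fold change 1.87), Acaca (1.30) and Acacb (0.71), the carboxylases that make malonyl-CoA. The fourth was Crat, carnitine acetyltransferase (0.66), named after its value was seen. Cpt1a, the enzyme that malonyl-CoA inhibits, had a control level of 303 ± 23.5 TPM (SD, n = 4), against 238 ± 30.2 TPM (SD, n = 4) in Ad-shmGULL (log2 fold change -0.35, adjusted p = 0.0582 from limma). Beside these, the log2 fold change of Mlycd was 0.18; the difference from them was not tested.

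Among the partners of Mbtps1, 2 of 16 tested genes of SREBP and ATF6 processing passed as higher after knockdown, where 5.35% of all tested genes were higher and 2.30% lower: Srebf1, which encodes SREBP1 (log2 fold change 0.72), and Insig1, which holds SREBPs in the endoplasmic reticulum and is itself an SREBP target (0.63), so that it is counted in the next list as well. Scap, the escort of SREBP, had a log2 fold change of -0.21 (adjusted p = 0.268 from limma). Of 14 sterol-responsive targets of SREBP2, 5 passed as higher, among them Hmgcs1 (0.92), an early enzyme of cholesterol synthesis, and none as lower. Of 14 chaperone genes that ATF6 acts on, none passed as higher and 1, Sdf2l1, as lower (-1.40). Sel1l, of endoplasmic reticulum-associated degradation, did not reach the fold change required but had an adjusted p of 0.030 (0.27, limma). Mbtps1 itself changed by 0.12.

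The list of NRF2 targets did not hold Osgin1. Of its 23 tested genes, 3 passed the threshold as higher after knockdown (5.35% of all tested genes did), none as lower, and the median was 0.34 against 0.087 for all tested genes. Me1 (1.76), a malic enzyme that also supplies fatty acid synthesis, and Tkt (0.59), which encodes transketolase, were 2 of these. Gclm, which takes part in glutathione synthesis, had a log2 fold change of 0.31 (adjusted p = 0.103 from limma). Nfe2l2, which encodes NRF2, had a control level of 48.3 ± 5.91 TPM (SD, n = 4), against 71.7 ± 17.0 TPM (SD, n = 4) in Ad-shmGULL (log2 fold change 0.54, adjusted p = 0.0715). Osgin1 was not alone in its sign: Srxn1, another NRF2 target, named after its value was seen, had a log2 fold change of -0.50 with an unadjusted P of 0.149 (limma). Cyp2a5 (-0.13), Nqo1 (-0.085) and Ces1g (-0.0068) of this list, also named after their values were seen, were below 0 too. All other tested genes of the list were above 0. The difference between Osgin1 and these genes was not tested.

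Genes that work with the remaining members were counted the same way. None of 14 tested heat shock genes passed the threshold, although 6 had an unadjusted P under 0.05 as higher (15.4% of all tested genes), with Stip1, a cochaperone, at 0.41. In rescue minus control 3 heat shock genes passed as higher, and 6.84% of all tested genes did. None of 19 tested genes of RNA polymerase I initiation passed in any comparison, and Polr1e, a polymerase I subunit, had the lowest P after knockdown (-0.38, adjusted p = 0.161 from limma). None of 8 tested SLC38 amino acid transporters and none of 4 tested relatives of Hsdl1 passed in any comparison. In rescue minus control all 4 of these relatives were higher at an unadjusted P under 0.05, as were 24.2% of all tested genes, and Hsd17b13, a lipid droplet protein named after its value was seen, had an adjusted p of 0.043 (log2 fold change 0.47, limma). Slc38a2, a transporter of small neutral amino acids, was at -0.47 (adjusted p = 0.0679 from limma) after knockdown. Of the 2 other NECAB genes, Necab1 alone was tested, at 0.31 after knockdown, and it passed in rescue minus control (0.54).

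Over the 12 mice, the gene whose log2(TPM + 1) followed Osgin1 most closely was the zinc finger gene Gzf1 (Pearson r = 0.965, Spearman rho = 0.902), followed by Ugcg and Trappc2. The most opposed were Slc16a11 (r = -0.964) and Lipg (r = -0.935). For Mlycd the closest were Atxn7l3 (r = 0.949, rho = 0.545), Map3k11 (r = 0.926, rho = 0.420) and 2510039O18Rik, and the most opposed Eif2ak2 and Cox7b. For Mbtps1 they were Polr2b (r = 0.972, rho = 0.951), Abcb1a and Anapc5, and the most opposed Zfp36 and Ctsl. None of these genes is among the 13 near mGULL. The mice share groups and each value shares its library's scaling, and these genes were the extremes of 16378, so the coefficients are a description only; for Atxn7l3 and Map3k11 the rank correlation was much lower than r.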

How the data were processed

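Total RNA of liver was sequenced as strand-specific Illumina libraries. The authors trimmed reads with fastp 0.23.2, checked them with FastQC 0.11.8, aligned them with HISAT2 2.2.1.0 to GRCm38.p6 and counted them on GENCODE VM24 genes (Subread 2.0 with featureCounts is named in the submitters' processing notes); the deposited values are TPM, 1 column per mouse. Depth per mouse is unknown, and p-values measure the spread between the mice.

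Values were analysed as log2(TPM + 1) with limma 3.58.1 in R 4.3.3 for the 16378 genes whose mean reached 1 TPM. One model held 3 groups, without covariates, with variances moderated by empirical Bayes along a trend in expression, and p-values were adjusted over all genes. Exact two-sided permutation tests compared 4 mice with 4 (smallest p 0.0286). The fit was tested on simulated data for knockdown minus control. At an adjusted p under 0.05 (limma), 29.7% of added log2 changes of size 0.5 were recovered. The shares were 76.1% for size 1 and 94.1% for size 2, and 5.52% of the calls were false. Positions and promoters came from RefSeq (GRCm38.p6) and shRNA targets from exact matches to GRCm39, with Python 3.11.15; figures used matplotlib 3.10.9. The members and lists were chosen with earlier results of these data known. Genes named are all members, Dnaaf1, the most changed genes within 1 Mb and those most correlated with 3 members. Up to 4 genes per list with the smallest P after knockdown were named too. Crat, Meak7, Srxn1, Cyp2a5, Nqo1, Ces1g, Hsd17b13 and single marker genes were named after their values were seen. Alternatives used a pseudocount of 0.1, all genes without a filter, a mean of at least 5 TPM, median-of-ratios scaling, quantile normalization, 2 groups only, a replicate block and leaving out each mouse; the ratio without 1 mouse was chosen after seeing the data. No column was left out, and Gm32006 was not matched by name, so it was not analysed here. One gene of a partner list is not reported here.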

Additional observations from a re-analysis of the deposited data

Results flagged for a closer look

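Of the 24 gene and group sets of 4 mice that were examined for 1 value far from the rest, Dnaaf1 stood out in both Ad-Ctrl, where 1 mouse was at 0.165 TPM, and Ad-shmGULL, where 1 mouse was at 0.0522 TPM, while the other 3 mice of each group were listed at 0. Chance alone marks about 1 in 20 such groups, and a gene listed at 0 in all but 1 mouse is always marked.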

How the results depend on the processing

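With 7 alternatives and 12 fits that each left out 1 mouse, the sign of Osgin1, Mlycd, Mbtps1, Hsdl1 and Taf1c after knockdown did not change, nor in rescue minus knockdown. The count of flanking genes past the study's threshold after knockdown was 0, and 1 (Osgin1) with median-of-ratios scaling; the count with an adjusted p under 0.05 was likewise 1 with that scaling. In rescue minus control that count was 0 to 1 over the fits that left out a mouse, the 1 being Mbtps1 without Ad-Ctrl replicate 1. With a mean of at least 5 TPM Taf1c was not tested.

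Median-of-ratios scaling gave Hsbp1 log2 fold changes of -0.098 after knockdown, -0.032 in rescue minus knockdown and -0.13 in rescue minus control, and quantile normalization -0.071, -0.014 and -0.086. Taf1c in rescue minus control became -0.080 and -0.12 under these. The median of the 1 Mb neighbourhood in rescue minus knockdown became -0.00076 and -0.0075, and in rescue minus control -0.13 and -0.12. Leaving out 1 mouse, that median in rescue minus knockdown ran from 0.024 (without Ad-shmGULL replicate 1) to 0.11. Over those fits Hsbp1 ran from -0.068 to 0.052 after knockdown and from -0.0039 to 0.12 in rescue minus control, and in rescue minus control Taf1c ran from -0.11 to 0.17, Mlycd from -0.019 to 0.012 and Osgin1 from -0.11 to 0.029. The cause was not tested.

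The labels give no meaning to the replicate numbers, and not every same-numbered pair correlated above 0.1, so the numbers were not taken to pair the mice: the correlation of their deviations from the group means was -0.244 to 0.0362 in knockdown minus control, -0.0339 to 0.154 in rescue minus knockdown and -0.0912 to 0.099 in rescue minus control. In rescue minus knockdown 3 of 4 rescue mice correlated best with the knockdown mouse of their own number, against 0 and 1 of 4 in the other two, a hint from the data and not the design. With the replicate block, 1275 genes passed the threshold after knockdown against 1253, and those with an adjusted p under 0.05 in rescue minus control went from 352 to 71. With the block, 0 flanking genes passed in any comparison, and the adjusted p of Osgin1 after knockdown was 0.132 (limma), against 0.109 without it. A block cannot change the fold changes in this balanced design.

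Among the partner genes named here that were called after knockdown at an adjusted p under 0.05, Fasn and Me1 stayed below it in all 19 alternatives (highest 0.047 and 0.036), Acaca and Sdf2l1 had a higher value only with 2 groups in the fit (0.051 and 0.053), and Acacb, Insig1, Srebf1, Sel1l and Tkt lost the call in 9, 4, 7, 9 and 9 of the 12 fits that left out a mouse. The share of genes higher among those past the threshold also depended on scaling, with 876 higher and 377 lower after knockdown as deposited and 625 and 548 with median-of-ratios scaling.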
